A study of Sus scrofa with 9 samples.

Results

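*CACYBP*, *VBP1* and *PTGES3* encode small cytosolic proteins that assist protein folding or turnover, and their transcript levels were described in hatched blastocysts (HB) of the pig. Each of these 3 genes was read by 1 probe of a custom array of 23971 probes, on which 10344 probes carried a gene symbol and stood for 7495 genes. The genes were picked by name after an earlier analysis of the same arrays had shown them far lower in parthenogenetic embryos than in embryos derived in vivo. The values of that comparison are therefore given as a description with no test, and the other comparisons of these genes, which reuse the same arrays, are treated alike.

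Pools of 5 embryos were taken from 3 sources, with 3 pools per source and 1 array per pool. Embryos of the IVV HB group were fertilized in inseminated gilts and collected 5.5 days later. PA HB were oocytes activated without sperm, which carry no paternal genome, and CT HB were reconstructed from oocytes and donor somatic chromatin. PA HB and CT HB were both started with calcium ionomycin and 6-dimethylaminopurine and cultured in the same medium, so source, activation, culture and age differed together from IVV HB and cannot be told apart. The labels give their collection time as 7 hours after fertilization in vitro, whereas the study's methods describe culture for days. No breed, sex or donor cell type is given in the sources used here. The study's methods call the 3 pools of a group biological replicates and do not say whether they came from separate collections, so p-values measure only the spread between these pools.

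Every value is a log2 ratio of the embryo pool (Cy5) over a common reference (Cy3), itself a mix of RNA from in vivo oocytes and embryos at stages between the germinal vesicle and day 11. A value of 0 means the same level as in that reference, and 1 unit is a 2-fold difference. Neither the base nor the direction of the ratio was written beside the values. It was read from the dyes, and 17 oocyte transcripts, which should be richer in a reference that contains oocytes, lay below 0 with array medians of -3.42 to -2.16. Because each probe is set against its own reference level, ratios order the groups within a gene but not the genes among themselves. Embryos were pooled whole, so fewer cells of a type and less RNA per cell cannot be told apart.

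The array medians lay between -0.11 and -0.03, and the interquartile range was 0.85 to 1.03 on PA HB arrays against 0.55 to 0.67 on the others. Markers of the trophectoderm, the outer layer of a blastocyst, had medians of -0.01 to 0.42 in IVV HB, 0.18 to 0.56 in PA HB and 0.25 to 0.37 in CT HB over 11 genes. For 6 genes of the inner cell mass the medians were 0.18 to 0.57, -0.06 to -0.01 and -0.21 to 0.06 in the same order. Of these 6 genes 0 were called in either direction against IVV HB, in PA HB or in CT HB, at the thresholds given next. Their single differences from IVV HB ran from -0.42 to 0.92 in PA HB and from -0.58 to 0.84 in CT HB. Oocyte transcripts moved with the PA HB group, with 9 of 17 higher than in IVV HB (limma, adjusted p of at most 0.05 and at least 2-fold) and medians of -2.38 to -2.16 in PA HB, -3.42 to -2.78 in IVV HB and -3.41 to -3.15 in CT HB. Of 11 trophectoderm genes 1 was lower and 1 higher in PA HB, and 1 was higher of 6 primitive endoderm genes, of 6 fibroblast genes and of 4 leukocyte genes, against 4.34% of all genes higher. In CT HB 1 of the 4 leukocyte genes was again higher. Of 8 cumulus and granulosa cell genes 0 were called in either direction (limma, 0 lower and 3 higher at an unadjusted p under 0.05). The part of these genes and of the wider PA HB spread in the results below was not tested.

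Newly made proteins fold with the help of chaperones, and cofactors steer what a chaperone binds, how long it holds on and whether the client is destroyed. *PTGES3* encodes p23, a co-chaperone that closes over the ATP-bound form of HSP90 and holds steroid receptors ready for hormone, and it is also known as a cytosolic prostaglandin E synthase. *VBP1* encodes subunit 3 of prefoldin, a jellyfish-shaped complex that hands unfolded actin and tubulin to the chaperonin TRiC, and it was found in human cells as a binding protein of the von Hippel-Lindau tumour suppressor. *CACYBP*, the calcyclin-binding protein, joins the ubiquitin ligase SIAH1 to SKP1 in the destruction of beta-catenin, binds some S100 proteins and resembles the co-chaperone SGT1. Blastocysts make protein at a high rate while they expand and hatch, and these genes are broadly expressed in mammalian tissues.

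*CACYBP* separated all sources of embryos. Its log2 ratio was 1.52, 0.87 and 0.84 on IVV HB arrays 1, 2 and 3. On the PA HB arrays it was -2.95, -2.55 and -1.17. On the CT HB arrays it was 0.13, -0.20 and 0.04. The IVV HB pools thus lay above the reference, the CT HB pools at it and the PA HB pools below it, and no array of 1 group reached the range of another. The group means were 1.08 ± 0.38 in IVV HB, -2.23 ± 0.94 in PA HB and -0.01 ± 0.17 in CT HB (SD, n = 3). PA HB minus IVV HB was -3.30 on the log2 scale (SE 0.38, 9.86-fold lower in PA HB), the lowest of the 7495 differences. A gap of 2.02 remained between the highest PA HB and the lowest IVV HB array. PA HB 3 stood apart from the other PA HB arrays by more than 1 unit, and without it the difference was -3.83.

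*CACYBP* also lay below IVV HB in the CT HB pools, with a difference of -1.09 (SE 0.38, 2.13-fold) and a gap of 0.71 between the groups. It was not among the genes called lower in CT HB at the limma thresholds given above. In that comparison 0.36% of all genes had a lower difference. This ranking by size takes no account of spread, and the residual SD of *CACYBP* was 0.59, at the 96.3rd percentile of all genes. The ranges of 9.37% of all genes were separate in this direction, and of the 3 genes this held for *CACYBP* alone, a share that with 3 genes cannot be set against the background. The CT HB mean in turn exceeded that of PA HB by 2.21 (SE 0.38, 4.63-fold), and the gap there was 0.97. In that comparison 15% of all genes had CT HB arrays wholly above PA HB arrays, which again held for all 3 genes and follows from the low PA HB values that chose them. Of the 3 genes *CACYBP* was therefore the 1 with a graded order without overlap, from IVV HB over CT HB to PA HB. The means of *PTGES3* followed the same order (0.70, 0.41 and -0.98), but its IVV HB and CT HB arrays overlapped.

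*VBP1* was low in PA HB only. Its log2 ratio was 0.30, -0.63 and -0.09 on the IVV HB arrays. On the PA HB arrays it was -1.59, -2.94 and -2.26. On the CT HB arrays it was 0.54, -0.90 and 0.36. CT HB arrays lay on both sides of the IVV HB range, whereas every PA HB array lay below both other groups. The means were -0.14 ± 0.47, -2.27 ± 0.68 and 0.00 ± 0.78 in IVV HB, PA HB and CT HB (SD, n = 3). PA HB minus IVV HB was -2.12 (SE 0.41, 4.35-fold lower in PA HB), which was the 7th lowest difference of all genes, with a gap of 0.96 between the groups. CT HB exceeded PA HB by 2.27 (SE 0.41, 4.81-fold), the 4th highest difference.

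In comparison with IVV HB, *VBP1* stood at 0.14 in CT HB (SE 0.41), a value smaller than its error and in the upper part of all genes, 73.2% of which had a lower one. Its sign turned without IVV HB 2 (-0.10), CT HB 1 (-0.12) or CT HB 3 (-0.04). With a residual SD of 0.66, at the 97.6th percentile of all genes, *VBP1* was the noisiest of the 3 genes, and neither a moderate rise nor a moderate fall in CT HB could be seen at this precision.

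*PTGES3* was likewise lowest in PA HB, with less spread between arrays. Its log2 ratio was 0.87, 0.54 and 0.68 on the IVV HB arrays. On the PA HB arrays it was -0.66, -1.14 and -1.15. On the CT HB arrays it was 0.61, 0.01 and 0.62. Pools of IVV HB and most of CT HB lay above the reference, CT HB 2 was level with it, and PA HB pools lay below. The means were 0.70 ± 0.17, -0.98 ± 0.28 and 0.41 ± 0.35 (SD, n = 3) for IVV HB, PA HB and CT HB. PA HB minus IVV HB was -1.68 (SE 0.22, 3.20-fold lower in PA HB), the 45th lowest difference, and the groups were 1.20 apart. CT HB exceeded PA HB by 1.39 (SE 0.22, 2.63-fold).

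CT HB and IVV HB overlapped in *PTGES3*, with a difference of -0.28 (SE 0.22) that lay within the spread of the CT HB arrays. Without CT HB 2 that difference was -0.08, and with all arrays 17% of all genes had a lower one. The residual SD of *PTGES3* was 0.27, near the middle of all genes, so that the smallest of the PA HB differences was also the most precisely measured.

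**Figure D1:**
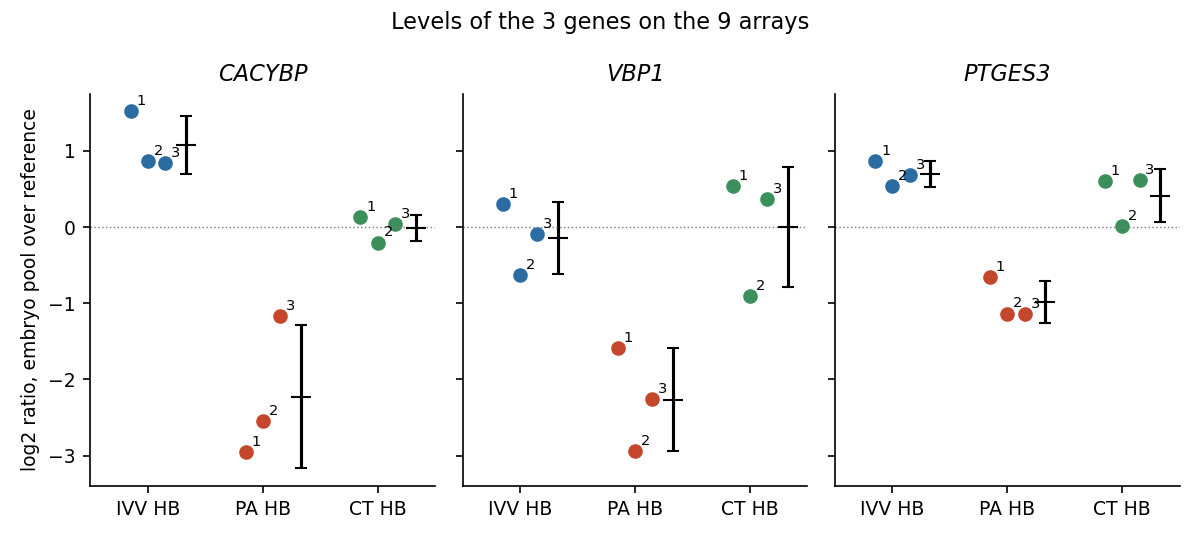
Log2 ratio of embryo pool over reference (vertical axis) for *CACYBP*, *VBP1* and *PTGES3* in IVV HB, PA HB and CT HB; numbered points are the arrays, bars the mean ± SD of 3 arrays. All PA HB arrays lie below all arrays of the other groups, and CT HB lies below IVV HB without overlap in *CACYBP* alone.

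Set against all genes, separation of PA HB from IVV HB was common. In 15.7% of the 7495 genes every PA HB array lay below every IVV HB array, and 3.38% of genes were called lower in PA HB (limma, adjusted p of at most 0.05 and at least 2-fold), against 3 of 3 here, which the choice of the genes fixed. Another 4.34% were called higher. In CT HB 0.0801% of genes were called lower and 0.574% higher than in IVV HB, and in CT HB set against PA HB 4.83% were called lower and 2.95% higher. Over all genes 253 were lower and 325 higher in PA HB, a split that became 197 and 119 after quantile normalization and 165 and 346 after scaling, and in CT HB 6 and 43 became 31 and 99, and 28 and 77. The median difference from IVV HB over all genes was 0.01 in PA HB and -0.01 in CT HB.

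**Figure D2:**
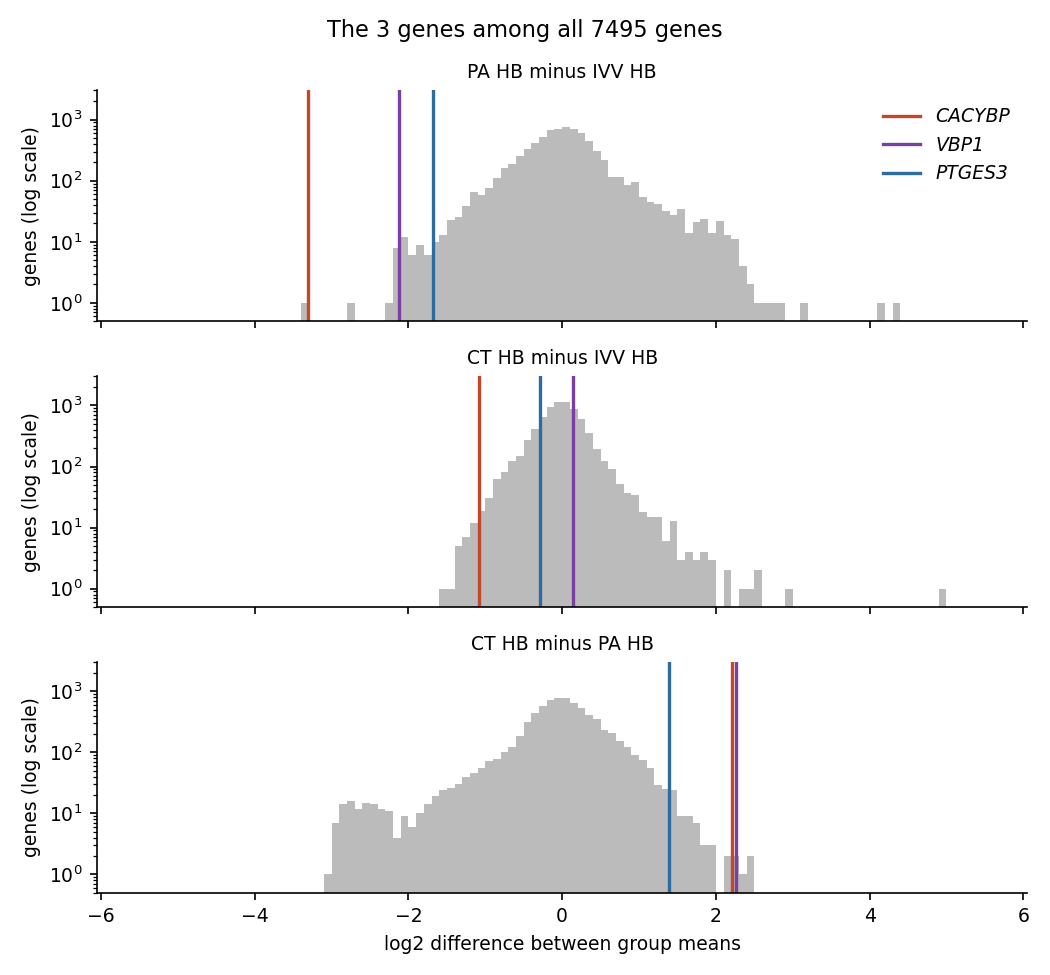
Histograms of the log2 difference between group means (horizontal axis) over 7495 genes (vertical axis, number of genes on a log scale) for the 3 comparisons, with lines at the 3 genes. *CACYBP* is the lowest gene in PA HB against IVV HB. In CT HB against IVV HB 73.2% of all genes lie below *VBP1* and 17% below *PTGES3*.

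The low PA HB values of the 3 genes remained when the arrays were brought to a common spread. After each array had been scaled to the same spread, the differences of PA HB from IVV HB were -2.96 (*CACYBP*), -1.57 (*VBP1*) and -1.58 (*PTGES3*). After quantile normalization the differences were -3.68, -2.30 and -1.71 in the same order. With any 1 of the 9 arrays left out they ranged from -3.83 to -2.94, from -2.46 to -1.78 and from -1.84 to -1.59. For *CACYBP* in CT HB against IVV HB the corresponding values were -1.30 after scaling, -1.47 after quantile normalization and -1.20 to -0.87 with 1 array left out.

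Within groups, the sizes of the deviations ran together most closely in *VBP1* and *PTGES3*. The deviations of an array from its group mean correlated with r = 0.94 between *VBP1* and *PTGES3* over the 9 arrays. Without the 2 arrays on which *VBP1* deviated most, PA HB 2 and CT HB 2, r was 0.92. The values for *CACYBP* were 0.12 with *VBP1* and -0.13 with *PTGES3*. By side of the group mean alone the pairs were alike, since each of the 3 pairs lay on the same side on 7 of 9 arrays. In *VBP1* the deviations were 0.44, 0.67 and 0.54 on the arrays numbered 1 and -0.49, -0.68 and -0.90 on those numbered 2, in the order IVV HB, PA HB and CT HB. In *PTGES3* they were smaller and of the same sign, 0.17, 0.32 and 0.19 on the former and -0.16, -0.15 and -0.40 on the latter. On the arrays numbered 3 they were 0.05, 0.01 and 0.36 in *VBP1* and -0.02, -0.17 and 0.21 in *PTGES3*. There the signs differed in IVV HB and PA HB. *CACYBP* was instead lowest on PA HB 1, at -0.73 from its group mean, and highest on PA HB 3, at 1.05. The probes of the 3 genes share the 9 arrays and pools, so these correlations are a description of those arrays.

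**Figure D3:**
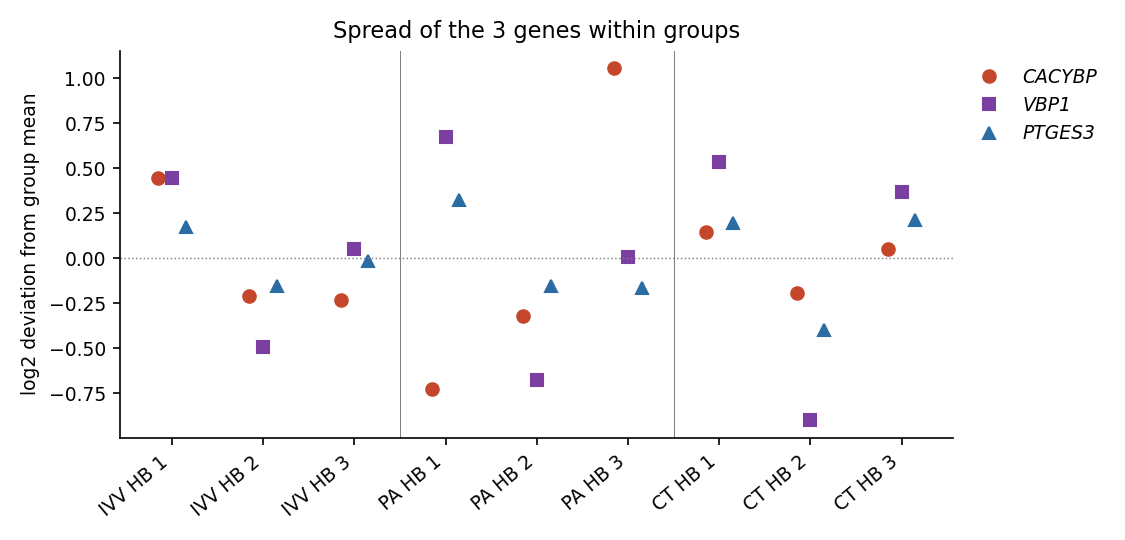
Deviation of each array from its group mean (vertical axis, log2) for the 3 genes, with the 9 arrays on the horizontal axis in groups of 3. Each pair of genes lies on the same side of the mean on 7 of 9 arrays, and *CACYBP* deviates most on PA HB 1 (-0.73) and PA HB 3 (1.05).

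The genes whose profile over all 9 arrays was most like that of each gene came from many functions. These correlations rest largely on the step between PA HB and the other groups, which all such genes share by construction, and the arrays share 1 reference. For *CACYBP* the 5 most similar of 7007 other named genes were *COPB1*, a subunit of the vesicle coat COPI (r = 0.97), *SAAL1* (0.97), *EFCAB2* (0.97), the ciliary transport gene *IFT74* (0.97) and the exosome ribonuclease gene *DIS3L* (0.96). For *VBP1* they were *METTL8* (0.99), the protein repair methyltransferase gene *PCMT1* (0.98), the ribosomal protein gene *RPL35A* (0.97), *IMPDH2*, an enzyme of guanine nucleotide synthesis (0.97), and the complex I subunit gene *NDUFA9* (0.97). For *PTGES3* they were *NDUFA9* again (0.99), the RNA polymerase III subunit gene *POLR3D* (0.98), *TMEM167A* (0.98), *KIAA0368* (0.98) and the exportin gene *XPO4* (0.98). An r above 0.9 was reached by 108, 146 and 169 genes for *CACYBP*, *VBP1* and *PTGES3*. *PTGES3* ranked 12th among all genes in likeness to *VBP1* (r = 0.96), whereas *VBP1* ranked 447th (0.80) and *PTGES3* 168th (0.88) in likeness to *CACYBP*. When genes were ranked by Spearman's rho, 0, 1 and 0 of these 5 names stayed among the first 5, so single names carry little weight.

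Partners of the 3 proteins were read from 10 lists, which also hold relatives of known partners that need not bind any of the 3. The lists had 169 genes, of which 96 were measured. In PA HB 6 of them were lower and 4 higher than in IVV HB (limma, adjusted p of at most 0.05 and at least 2-fold), or 6.25% and 4.17%, against 3.38% and 4.34% of all genes. In CT HB 0 were lower and 1 higher. At an unadjusted p under 0.05 by the same tool, 29 were lower and 9 higher in PA HB, and 9 lower and 6 higher in CT HB. The share of all genes at an unadjusted p is not given, here or for the lists below. Counts at an unadjusted p therefore cannot be set against a background and say nothing about the partners as a set. The median difference of the partners was -0.19 in PA HB and -0.07 in CT HB. Of the calls named below, those of *RUVBL1*, *DNAJC8*, *TUBA1B* and *S100A7* were lost after quantile and after scale normalization.

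Around p23, the HSP90 list had 1 gene lower and 1 higher in PA HB among 23 measured, with a list median of -0.25. At an unadjusted p under 0.05 (limma) 6 were lower and 3 higher. At less than 2-fold, *CHORDC1* (-0.95, adjusted p = 0.018) and *NUDC* (-0.68, 0.049) passed the adjusted p on the low side. Both were named after their values were seen. *HSP90AB1*, the constitutive cytosolic HSP90 that p23 binds, read -0.12, -0.40 and -0.64 in IVV HB, -0.63, -1.49 and -1.21 in PA HB and -0.60, -0.43 and -0.13 in CT HB. Its difference of -0.72 in PA HB missed the threshold (limma, adjusted p = 0.069), and its CT HB mean equalled that of IVV HB (0.00, SE 0.24). *HSP90AA1*, the inducible form, differed by -0.73 in PA HB (adjusted p = 0.046, under 2-fold) and by -1.05 in CT HB (adjusted p = 0.054). The latter passed after quantile (-1.36, adjusted p = 0.022) and scale normalization (-1.23, 0.031), and the former reached 2-fold after quantile normalization (adjusted p = 0.041). Its probes disagreed, at -1.12 and -0.33 in PA HB and at -1.50 and -0.60 in CT HB. *RUVBL1*, an ATPase of an HSP90 adaptor complex, fell by 1.09 in PA HB (SE 0.27, adjusted p = 0.021), but lost its call without IVV HB 1 or PA HB 2 (at most 0.094). Neither of its 2 probes passed both thresholds in a limma fit per probe (-0.83, adjusted p = 0.019, and -1.36, adjusted p = 0.063). The myosin chaperone gene *UNC45A* rose by 1.87 (SE 0.49, adjusted p = 0.028), with IVV HB 2 at 2.03 as high as PA HB 1, and missed the threshold after quantile (0.53) or scale normalization (0.91) or when any of 4 arrays was left out, namely numbers 1 and 3 of IVV HB and numbers 2 and 3 of PA HB (adjusted p of at most 0.12).

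In the HSP70 network, which passes clients on to HSP90, 2 of 20 genes were lower in PA HB and 0 higher. At an unadjusted p under 0.05 (limma) 7 were lower and 1 higher, and the list median was 0.04. *DNAJB2* passed the adjusted p at less than 2-fold (-0.70, adjusted p = 0.031), and was named after its value was seen. *HSPA8*, the constitutive HSP70, read -0.14, -0.26 and -1.24 in IVV HB, -2.11, -2.85 and -2.71 in PA HB and -0.55, -1.48 and -0.62 in CT HB. It fell by 2.01 in PA HB (SE 0.33, limma, adjusted p = 0.0043) and kept its call without any 1 array (at most 0.022). In CT HB its arrays overlapped those of IVV HB (-0.34, adjusted p = 0.79). *DNAJC8*, a J-domain protein of the spliceosome, was lower in PA HB (-1.02, adjusted p = 0.023), though not when number 1 or 2 of IVV HB or number 2 or 3 of PA HB was left out (adjusted p of at most 0.11), and stood at -1.14 in CT HB (0.072).

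Around *VBP1*, the other measured genes of the prefoldin list did not pass the test, whereas 2 subunits of the chaperonin it serves did. Of these 5 genes, *PFDN2*, *PFDN4*, *PFDN5*, *PFDN6* and the prefoldin relative *UXT*, 0 were called in either direction in PA HB. At an unadjusted p under 0.05 (limma) 1 was lower and 0 higher, and the list median was -0.49. *PFDN2*, a subunit of the beta type, read -0.27, -0.13 and -0.55 in IVV HB, -0.70, -1.04 and -0.80 in PA HB and 0.10, -0.29 and 0.02 in CT HB. Its PA HB arrays lay below the others, yet its difference of -0.53 (SE 0.19, limma, adjusted p = 0.082) was far smaller than that of *VBP1*. *PFDN5*, of the alpha type like *VBP1*, stood at -0.61 in PA HB (SE 0.30, adjusted p = 0.21), with overlapping arrays. The difference in size between *VBP1* and the other genes of this list was not tested.

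Of 7 genes listed with TRiC, 2 were lower in PA HB and 0 higher. At an unadjusted p under 0.05 (limma) 5 were lower and 1 higher. The list median was -0.73, against 0.01 over all genes. *CCT2* read -0.39, -0.48 and -0.83 in IVV HB, -1.68, -2.02 and -2.40 in PA HB and -0.97, -1.10 and -0.38 in CT HB. It fell by 1.47 in PA HB (SE 0.24, limma, adjusted p = 0.0043), but stood at -0.89 after scaling of the arrays. *CCT4* fell by 1.43 (SE 0.25, adjusted p = 0.0057), from 0.52, 0.02 and 0.06 in IVV HB to -0.87, -1.60 and -1.21 in PA HB. At less than 2-fold, *TCP1* (-0.97, adjusted p = 0.0054) and *CCT3* (-0.73, 0.037) passed the adjusted p on the low side and *PDCL3*, a phosducin-like cofactor of TRiC, on the high side (0.85, 0.028), all 3 named after their values were seen. In CT HB all 7 lay below IVV HB and 0 were called (limma, 1 lower and 0 higher at an unadjusted p under 0.05), with a median of -0.25. Among clients and cofactors of tubulin, 1 of 9 was lower in PA HB, the alpha-tubulin gene *TUBA1B* (-1.04, adjusted p = 0.012), whose probes stood at -1.68 and -0.40 and which lost its call without IVV HB 2 or PA HB 2 (-0.90 and -0.86).

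Around *CACYBP*, the ligase list was thinly measured, and 2 S100 genes were called in the opposite direction. Values for *SIAH1*, *SKP1* and *S100A6*, its direct partners, and for *VHL* were not analysed here. The S100 list took in the family at large, and binding of its measured genes to *CACYBP* was not examined. Of 4 measured ligase genes 0 were called in PA HB (limma, 1 lower and 0 higher at an unadjusted p under 0.05). Beta-catenin, *CTNNB1*, read -1.80, -1.96 and -2.79 in IVV HB, -2.72, -2.97 and -3.06 in PA HB and -1.43, -2.63 and -1.89 in CT HB, a difference of -0.73 in PA HB (adjusted p = 0.15) with overlapping arrays, whose sign turned after scale normalization (0.35). *TBL1XR1* stood at 0.30 (adjusted p = 0.39). Of 7 S100 genes 2 were higher in PA HB and 0 lower, with a list median of 0.20. At an unadjusted p under 0.05 (limma) 2 were higher and 1 lower. The 1 on the low side was *S100A14* (-0.66, adjusted p = 0.027, under 2-fold), named after its value was seen. *S100A11* read -1.66, 0.89 and 0.26 in IVV HB, 2.95, 3.23 and 2.78 in PA HB and 1.46, 2.91 and 2.92 in CT HB. It rose by 3.16 in PA HB (SE 0.56, limma, adjusted p = 0.0055) and stood at 2.60 in CT HB (0.062), where it passed after quantile (2.90, 0.022) and scale normalization (3.05, 0.047). *S100A7* rose by 2.06 in PA HB (adjusted p = 0.023), but not without IVV HB 1 or PA HB 3 (at most 0.098). *S100A10* rose by 1.80 in CT HB (adjusted p = 0.047), a call lost without any 1 of 7 arrays, all but PA HB 1 and CT HB 1 (at most 0.24).

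Partners tied to the second names of *VBP1* and *PTGES3* gave few calls. In PA HB 6 of 7 prostaglandin genes lay below 0, with a list median of -0.34, against 0.01 over all genes. The medians of the hypoxia and the telomerase lists below were 0.08 and -0.09. Of 7 genes of the von Hippel-Lindau and hypoxia-inducible factor list 0 were called in PA HB (limma, 1 lower and 0 higher at an unadjusted p under 0.05), with *EGLN1*, an oxygen-sensing hydroxylase, at -0.76 (adjusted p = 0.048, under 2-fold) and *CUL2* at -0.50 (0.37). Of 7 prostaglandin genes 0 were called (limma, 3 lower and 0 higher at an unadjusted p under 0.05), with the receptors *PTGER3* at -0.74 (adjusted p = 0.15) and *PTGER1* at -0.48 (0.10). The other prostaglandin E synthases, *PTGES* (-0.32, adjusted p = 0.53) and *PTGES2* (0.03, adjusted p = 0.93), both named after their values were seen, did not pass. Of 7 genes of steroid receptors and telomerase, which p23 also serves, *NHP2*, a protein of the telomerase RNA particle, rose by 1.25 in PA HB (SE 0.22, adjusted p = 0.0057), though not after quantile (0.78) or scale (0.80) normalization.

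**Figure D4:**
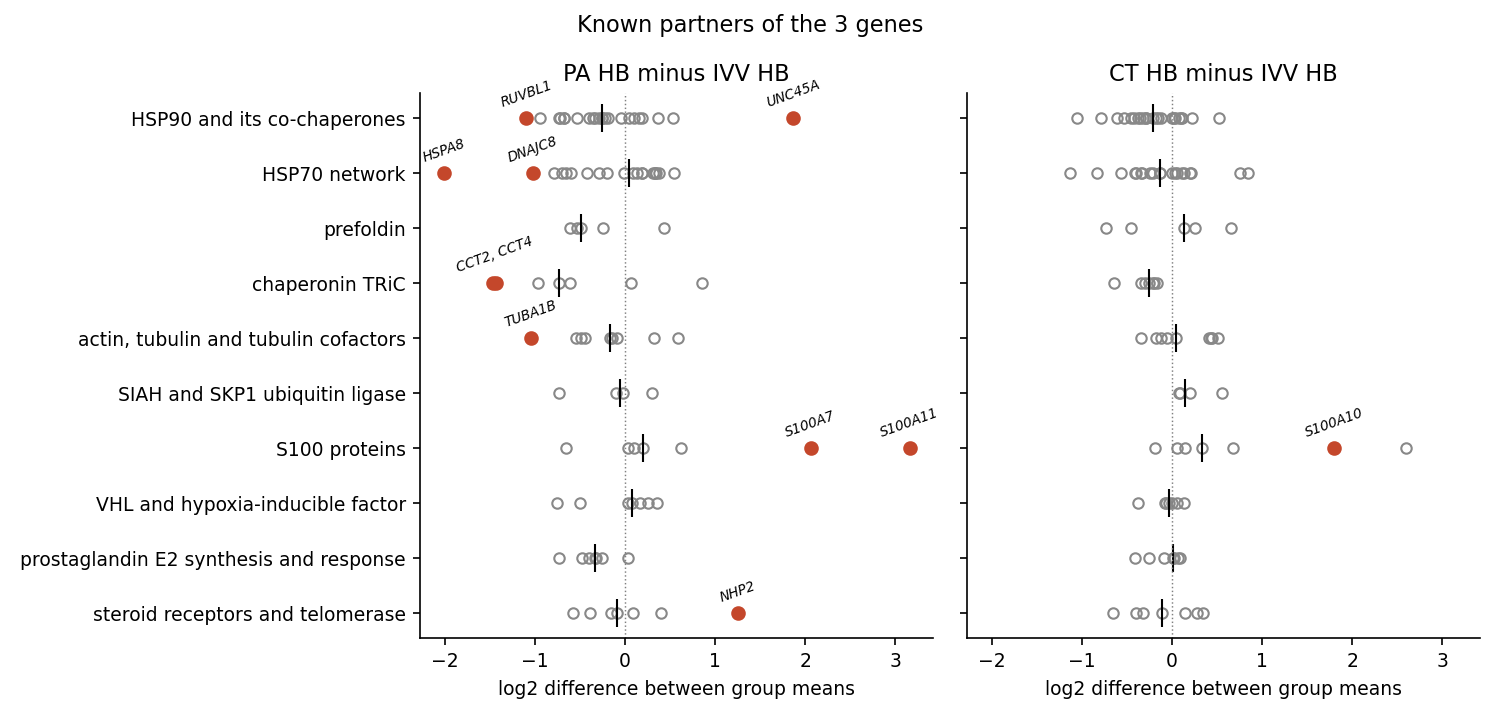
Log2 difference from IVV HB (horizontal axis) of measured partner genes by list (vertical axis) in PA HB (left) and CT HB (right); filled points passed an adjusted p of at most 0.05 and 2-fold, open points did not, and ticks are list medians. In PA HB 6 partners are called lower and 4 higher, and in CT HB *S100A10* alone is called.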

How the data were processed

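RNA from pools of 5 embryos was amplified, labelled and hybridized to 9 two-colour arrays without dye swap. The authors subtracted background and removed dye bias by loess on each array, and the deposited log2 ratios (embryo over reference, 23971 probes, 0 missing values) were used as given. No scaling between arrays is stated, spot intensities were not used here, and the number of arrays limits the precision. Gene symbols came from the platform annotation, and 201 probes were renamed through the RefSeq table of Sscrofa11.1. Probes of a gene were averaged (7495 genes). Group means were fitted over all 9 arrays with limma 3.58.1 in R 4.3.3, as in the study's methods, with two-sided p-values adjusted by Benjamini-Hochberg over all genes, and calls needed an adjusted p of at most 0.05 and at least 2-fold. Standard errors are limma's moderated ones.

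The 3 genes and the partner lists were chosen with earlier results of these data known. Named partners were *HSP90AA1*, *HSP90AB1* and other direct partners where measured, up to 4 called genes per list and comparison with IVV HB, by smallest adjusted p, or, where none was called, the 2 with the largest difference. On simulated data for PA HB against IVV HB over 7495 genes, 43 and 46 of 50 genes were recovered at log2 falls of 1.5 and 2, and 50 of 50 at 3 and 4. Each of these settings also gave 5 false calls. Alternatives tried were array weights, a robust prior, centred, quantile-normalized or scaled arrays, the compared arrays alone, a replicate block, probe medians, single probes, dropping the 25% of genes that varied least, the adjusted p alone, and each array left out. No sequences were used here.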

Additional observations from a re-analysis of the deposited data

Results flagged for a closer look

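For 6 of the 96 measured partner genes the effect in PA HB differed from that in CT HB by a test of the difference itself (limma, CT HB minus PA HB). Of the 96, 2.08% were called lower and 4.17% higher in CT HB, against 4.83% and 2.95% of all genes. *UNC45A* had a difference of -2.47 on the log2 scale (adjusted p = 0.0081), being lower in CT HB, though not after quantile normalization. *HSPA8* lay 1.67 higher in CT HB (adjusted p = 0.0083) and kept its call without any 1 array, but not after scaling. *CCT2* lay 1.22 higher (adjusted p = 0.0083), but not without CT HB 3, when it was just under 2-fold, or after scaling. *CCT4* lay 1.08 higher (adjusted p = 0.017), but not without PA HB 2, CT HB 1 or CT HB 3, or after quantile or scale normalization. *DNAJB5*, a J-domain co-chaperone of HSP70, lay 1.14 higher (adjusted p = 0.0048) and kept its call under every alternative run. *PDCL3* had a difference of -1.15 (adjusted p = 0.0075), which fell just short of 2-fold without PA HB 3 and otherwise kept its call. *CACYBP*, *VBP1* and *PTGES3* were not tested in this way, since their low PA HB values chose them.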

How the results depend on the processing

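The 9 differences of *CACYBP*, *VBP1* and *PTGES3* moved by less than 1 residual SD under every alternative run, and kept their sign except *VBP1* in CT HB against IVV HB, which ranged from -0.12 to 0.59 with 1 array left out. Counts of partner genes depended on the setting. Against 6 lower in PA HB, there were 2 after scale normalization, 3 with array weights, 15 in a fit per probe, 14 by the adjusted p alone, and 3 to 8 with 1 array left out (3 without PA HB 2). Against 4 higher, there were 2 after quantile normalization and 2 to 5 with 1 array left out (2 without IVV HB 1 or PA HB 3). In CT HB, against 0 lower, there were 2 with the replicate number as a block, without the least variable genes or with array weights, 1 after quantile or scale normalization or per probe, and 0 to 1 with 1 array left out. Against 1 higher, there were 0 in a fit of the compared arrays alone, 3 after quantile normalization, 2 with the block, scale normalization, array weights, the adjusted p alone or without the least variable genes, and 0 to 2 with 1 array left out. The causes were not tested. Of the 5 most similar genes, 0 (*CACYBP*), 1 (*VBP1*) and 0 (*PTGES3*) were also first by Spearman's rho.

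Over all genes, 253 lower and 325 higher in PA HB became 197 and 119 after quantile normalization, 165 and 346 after scale normalization, 228 and 350 after centring, 408 and 491 per probe and 516 and 524 by the adjusted p alone. In CT HB 6 and 43 became 31 and 99, 28 and 77, 5 and 43, 16 and 66, and 10 and 50 in that order, and 33 and 81 with array weights. Without IVV HB 1 the PA HB counts were 146 and 127, and without PA HB 2 they were 162 and 180.

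Deviations of same-numbered arrays correlated between -0.15 and 0.31 over all genes, with 5 of 9 pairs above 0.1, and 4 of 9 arrays were closest to their own number in both other groups. Not every pair passed 0.1 and no label ties the numbers, so the arrays were not treated as paired. With the replicate block the differences of the 3 genes were unchanged, while the SE of *VBP1* was 0.19 in place of 0.41, that of *PTGES3* 0.18 in place of 0.22 and that of *CACYBP* 0.37 in place of 0.38. With the block 266 genes were lower and 350 higher in PA HB. In CT HB against IVV HB the block brought *HSP90AA1* (adjusted p = 0.048), *DNAJC8* (0.035) and *S100A11* (0.013) past the threshold, as did array weights (0.011, 0.046 and 0.015) and leaving out the least variable genes (0.042, 0.045 and 0.012).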
